A study of Mus musculus with 6 samples.

Results

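The cells described here are mature olfactory sensory neurons (OSNs) of a mouse that carried gg8-tTA and tetOP2iresGFP, and that expressed the olfactory receptor (OR) Olfr17, also called P2, above every other OR. Of 2563 cells in the tetOP2 library, 671 passed as mature OSNs and 630 of those had a chosen OR. Olfr17 was the chosen OR in 374 of them, and 208 other ORs were chosen by the remaining 256 cells, which served as the comparison within the same suspension. Over the 6 libraries of the series the files held 29950 cells.

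A mature OSN had at least 10 UMIs (unique molecular identifiers, each standing for 1 captured transcript) of Omp and more Omp than Gap43 UMIs, at least 5 UMIs of Cnga2, Adcy3 and Gng13 together, and fewer than 5 UMIs of the sustentacular gene Cyp2g1. The chosen OR was the OR gene with most UMIs in the cell, with at least 5. The members were therefore selected on their own Olfr17 UMIs, and their Olfr17 level is given as a description. Every other value is also descriptive, because each of the 2 transgenic genotypes is 1 library and cells of 1 library are not replicates. Intervals cover counting error at 95%.

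The labels give the tissue as main olfactory epithelium. The tetOP2 genotype pairs gg8-tTA, the tetracycline transactivator placed behind a promoter of immature OSNs, with tetOP2iresGFP, in which that transactivator drives Olfr17 together with GFP. The control library came from a gg8-tTA mouse without the receptor transgene. The 4 other libraries came from 2 swap mice (the Cbx allele with a Cre driver), from a wild type with the Cre driver (control replicate 1) and from a mouse with the Cbx allele alone (control replicate 2). In swap mice Cre replaces Cbx1 by Cbx5 at the Cbx1 gene. These libraries are used here for neurons that chose the natural Olfr17 gene. Age is not given in the labels. The series describes sorted cells while the methods of this assay describe no sort, and a sort on GFP would set the share of Olfr17 neurons, so that share is a value of this suspension. The gene list names neither GFP nor tTA, and Olfr17 transcripts of the transgene and of the natural gene cannot be told apart.

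An OSN expresses 1 allele of 1 OR gene, and the position of the neuron along the dorsoventral axis of the epithelium limits which ORs it can choose. The OR that is chosen also sets the levels of axon guidance and adhesion molecules, through basal receptor signalling that raises cAMP before maturity and through activity later, so that axons of neurons with the same OR sort into the same glomerulus of the olfactory bulb. Olfr17 belongs to the ORs of intermediate position. When it is driven from a transgene in neurons of all positions, cells with 1 OR identity carry different positional backgrounds. Olfr17 lies on chr7:107093220-107099808 on the plus strand of GRCm38, within one of the OR gene clusters, as a protein-coding gene with 2 annotated transcripts of 1 and 2 exons.

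The tetOP2 library held 32005196 UMIs, with a median of 11229 per cell, and the gg8tTA control library 35298494 UMIs, with a median of 11543. The median depth was 10847 UMIs in Olfr17 choosers and 11879 in other choosers. Both transgenic libraries had Xist (1468 CPM, UMIs in every 1000000, in tetOP2 and 1337 CPM in the gg8tTA control) and no UMI of the Y-linked gene Ddx3y. Control replicate 1, control replicate 2 and swap replicate 2 had Ddx3y at 44.9, 55.9 and 53.7 CPM and Xist at 0.293, 0.388 and 0.584 CPM. Natural Olfr17 choosers of these 3 libraries therefore differ in sex from the transgenic ones. The 2 transgenic libraries shared 13 cell barcodes, none of them among neurons with a chosen OR. The 11 mature OSN markers summed to 28224 CPM in Olfr17 choosers and 27124 CPM in other choosers (UMIs in every 1000000 non-OR UMIs, all OR genes left out). Omp, at 9041 and 8793 CPM, and Gng13, which held 49843 of the 118113 UMIs of this sum in Olfr17 choosers, are genes of the selection. Outside the selection, Gfy, which encodes a Golgi protein of OSNs, was at 3619 and 3634 CPM and Cnga4, a channel subunit gene, at 278 and 353 CPM. The 6 sustentacular markers were at 206 CPM in both groups, with 409 of 861 UMIs in Olfr17 choosers from Cyp2g1, whose UMIs the selection limits, and the vomeronasal markers Trpc2 and Vmn2r1 had no UMI in Olfr17 choosers.

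Olfr17 was chosen by 59.4% (55.4 to 63.2%, exact Clopper-Pearson interval) of tetOP2 mature OSNs with a chosen OR. In the gg8tTA control 1 of 598 such neurons chose it, and in the other libraries 0 of 661 (swap replicate 1, which allows a share of up to 0.454%), 4 of 1008 (control replicate 1), 2 of 906 (swap replicate 2) and 6 of 1135 (control replicate 2). Among tetOP2 cells in the gate for immature OSNs (at least 5 Gap43 UMIs, more Gap43 than Omp), 149 of 281 with a chosen OR had Olfr17, 53.0% (47.0 to 59.0%). The share was thus 53.0% in the earlier gate and 59.4% in the later one, with overlapping intervals. The 256 other choosers were spread thinly, since 168 ORs were chosen by a single cell and none by more than 4.

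The amount of Olfr17 per neuron varied less than the amount of the chosen OR among other choosers. An Olfr17 chooser held between 9 and 284 Olfr17 UMIs with a median of 99, and the cells between the 10th and 90th percentile held 62 to 144. Other choosers held between 5 and 401 UMIs of their OR with a median of 87.5, and 32.5 to 183.5 between the same percentiles. As CPM over all UMIs of the cell, the medians were 9120 for Olfr17 choosers, 7442 for other choosers and 7861 for the other choosers of the gg8tTA control. The 6 cells of control replicate 2 that chose the natural gene ranged from 7325 to 16832 CPM with a median of 9892, and the 4 cells of control replicate 1 from 4404 to 7802 CPM with a median of 6898, so the transgenic median lay inside the range of natural choosers. The other choosers mix 208 ORs and the Olfr17 group holds 1, so differences between ORs are part of the first spread and not of the second.

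**Figure D1:**
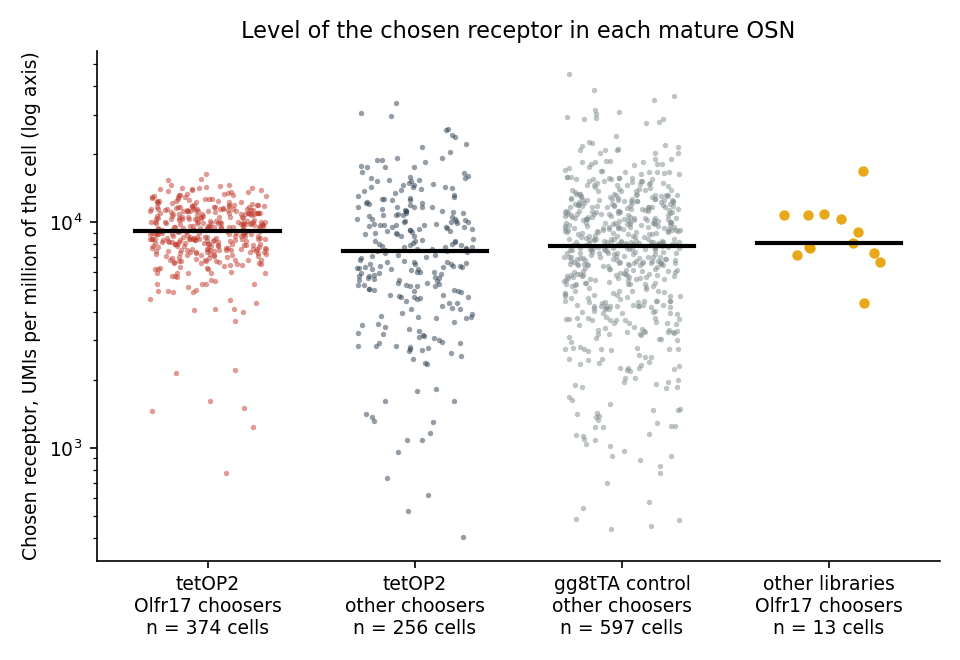
CPM of the chosen OR over all UMIs of the cell (log axis) for each mature OSN, by library and group, with a bar at the median. Olfr17 choosers of the tetOP2 library sit around 9120 CPM in a narrower band than the other 2 large groups, and the 13 cells of other libraries that chose Olfr17 overlap them.

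The threshold for a chosen OR separated few cells. The 5 members nearest to it had 9, 15, 19, 21 and 22 Olfr17 UMIs, and the 5 nearest cells outside had 3, 3, 3, 2 and 2. In all, 12 mature OSNs had Olfr17 on top with 1 to 4 UMIs. Olfr17 was also found at low level in sustentacular cells, which are not neurons. With each cell thinned to 3000 UMIs, 17% (12.6 to 22.2%) of sustentacular-gate cells and 19.1% (14.5 to 24.5%) of other choosers had an Olfr17 UMI, at median depths of 13284 and 11879 UMIs. The source of these UMIs was not tested, and 2 sustentacular-gate cells had Olfr17 as their chosen OR. Other choosers held Olfr17 at 131 CPM over all UMIs and sustentacular-gate cells at 82.6 CPM. One of the other choosers held 155 of the 398 Olfr17 UMIs of its group, and 1 sustentacular-gate cell held 57 of 290. Without these cells, an alternative chosen after the values were seen, the levels were 80.5 and 66.6 CPM. With all cells, 3 or more thinned UMIs were found in 0.781% and 0.791% of them. Of the 41 mature OSNs without a chosen OR, 25 had an Olfr17 UMI at their own depth, as did 55.9% of other choosers and 55.7% of sustentacular-gate cells.

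Olfr17 choosers held few UMIs of other ORs, as did neurons that chose another OR. Olfr17 made up a median of 99.3% of the OR UMIs of a cell, and 166 of the 374 cells had no UMI of any other OR. In other choosers the chosen OR made up a median of 98.2% in the tetOP2 library, with Olfr17 counted among the rest. It was 97.8% in the gg8tTA control, 99.7% in control replicate 2 and 100% in control replicate 1 and both swap libraries. A second OR with at least 3 UMIs at full depth was found in 6 Olfr17 choosers (1.60%, 0.591 to 3.46%), and in 11 other choosers (4.30%, 2.16 to 7.56%) when Olfr17 was not counted. One of these cells held Olfr788 with 49 UMIs, Olfr1034 with 9 and Olfr1033 with 3 beside 60 of Olfr17. The others held Olfr1342 with 41 beside 107, Olfr222 with 25 beside 63, Olfr571 with 15 beside 19 and, in a further cell, 8 beside 15, and Olfr286 with 5 beside 93. Thinned to 3000 UMIs, a UMI of another OR was found in 23.3% (19.1 to 27.9%) of Olfr17 choosers, in 19.5% (14.9 to 24.9%) of other choosers with Olfr17 not counted, and in 19.4% (14.7 to 24.8%) of sustentacular-gate cells counted in the same way. This share differed between libraries. In the gg8tTA control it was 45.6% in other choosers and 42.9% in sustentacular-gate cells. Other choosers of the swap and control libraries were between 14.7% and 19.4%. The source of these UMIs was not tested.

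Outside the OR genes, most of what was measured differed little between the 2 groups. UMIs of each gene were summed over the cells of a group and expressed as CPM over non-OR UMIs (the sense of CPM from here on), and of 7106 genes with at least 100 UMIs over both groups, 220 (3.1%) differed by at least 1.5-fold. Of these, 111 were higher in Olfr17 choosers (1.56%) and 109 lower (1.53%), and the median log2 fold of all genes was 0.00. Genes with that minimum are called measured below.

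The axon guidance receptor Nrp1 (neuropilin 1, a receptor for semaphorins whose level in OSN axons follows cAMP signals) had 39 UMIs in 374 Olfr17 choosers and 231 in 256 other choosers. This is 9.32 CPM (6.63 to 12.7) against 76.6 CPM (67.0 to 87.1), and 83.1 CPM in other choosers of the gg8tTA control. Nrp1 was 8.22-fold lower, with a log2 fold of -3.04 (-3.57 to -2.54). It was found in 28 Olfr17 choosers and in 98 other choosers. Thinned to 3000 UMIs, it was found in 3.48% of Olfr17 choosers, 17.6% of other choosers and 8.30% of sustentacular-gate cells. Of 18 axon guidance genes on the list, 11 reached 100 UMIs, none was at least 1.5-fold higher and 2 were lower, Nrp1 and Robo2, the latter a Slit receptor of dorsal axons at 35.1 against 60.0 CPM. The median log2 fold of the list was -0.05. Nrp2, the counterpart of Nrp1, was at 62.4 against 61.7 CPM, and Plxna1, the signalling partner of neuropilins, at 103 against 76.3 CPM.

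Of 11 measured adhesion molecules that sort axons by OR identity, 4 were lower and 1 higher, with a list median of -0.25 on the log2 scale. The homophilic adhesion protein Kirrel3 was at 19.8 CPM (15.8 to 24.6) against 48.1 (40.6 to 56.6), a log2 fold of -1.28. The teneurins Tenm2 and Tenm4, transmembrane proteins that match synaptic partners, were at 106 against 252 CPM and at 14.6 against 35.1 CPM, with log2 folds of -1.24 and -1.27. The protocadherin Pcdh17 was at 117 against 185 CPM. Pcdh19 went the other way, at 123 CPM (112 to 134) against 66.3 (57.4 to 76.2), with 514 and 200 UMIs and a log2 fold of 0.89. Kirrel2, whose level follows OSN activity, was at 104 against 117 CPM with a log2 fold of -0.17 (-0.37 to 0.04). Pcdh7, a protocadherin not on the list, was 5.88-fold lower at 5.02 against 29.5 CPM.

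By the rule for naming genes, the 12 genes with the lowest upper bound of the fold were Fxyd2, Rprm, Tuba4a, Bglap3, Nrp1, Cd36, Cd55, Pcdh7, Trp53i11, Caly, Alas2 and Tppp3. Tuba4a, an alpha tubulin, was 7.74-fold lower at 25.3 against 196 CPM, with 106 and 591 UMIs in 63 and 118 cells. Rprm, a cell cycle inhibitor, was 10.05-fold lower at 9.80 against 98.5 CPM. Cd36, a fatty acid receptor present in a subset of OSNs, was at 6.21 against 37.5 CPM, and Cd55, a regulator of complement on the cell surface, at 15.1 against 72.9 CPM. Caly, which regulates endocytosis, was at 23.4 against 81.9 CPM, Tppp3, which binds tubulin, at 58.3 against 176 CPM, and Trp53i11 at 11.7 against 54.1 CPM. In these genes the other choosers of the gg8tTA control were close to those of the tetOP2 library, for example 170 CPM of Tuba4a, 91.0 CPM of Rprm and 69.5 CPM of Cd55, with a wider gap for Caly at 49 CPM. Fxyd2, Bglap3 and Alas2 rested on few cells. One other chooser held 57.0% of the Fxyd2 UMIs of its group and 1 held 53.2% of those of Alas2, and Bglap3 was found in 5 and 14 cells.

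The 12 genes with the highest lower bound were Bglap2, Cabp2, Bglap, Col1a1, Col2a1, Col1a2, Rgs5, Col5a2, Sparc, Smpd3, Bpifb3 and Serpinh1, most of them genes of osteoblasts and other matrix-forming cells. A list of 12 osteoblast genes, put together after these values were seen, summed to 3218 CPM in Olfr17 choosers, 370 CPM in other choosers and 1777 CPM in other choosers of the gg8tTA control, with Bglap (osteocalcin) the most abundant at 3724 UMIs. A single Olfr17 chooser held 8218 of the 13466 UMIs, a second held 3693, the next 22, and no other chooser more than 26. Without the cells that had 20 or more of these UMIs (3 and 1), 88 genes were at least 1.5-fold higher and 112 lower, and the log2 fold of Bglap went from 4.10 to -0.11. Bpifb3 had 65.4% of its UMIs in 1 cell. Cabp2, a calcium-binding protein, was not of this kind. It had 207 UMIs in 16 Olfr17 choosers and 3 UMIs in 3 other choosers, 49.5 against 0.995 CPM with a log2 fold of 5.64 (4.07 to 7.93), and 1 cell held 27.1% of the 207. Most Olfr17 choosers thus had no Cabp2 UMI, and the 13 Olfr17 choosers of the other libraries had none. Of 106 ORs chosen by 10 or more cells in those libraries, 101 had Cabp2 at 0, and the highest value was 23.9 CPM.

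To see past single cells, folds were also computed after leaving out of each group, for each gene, the 1% of cells with most UMIs of that gene (4 and 3 cells). This was chosen after the values were seen. It left 115 genes higher and 113 lower. The same rule then named Cabp2, C130074G19Rik, Kirrel, Mdga2, Pcdh19, Klhl7, Gm6878, 2300005B03Rik, Pcdh8, Dhrs3, Txnip and Sqrdl as the highest, and put Adam28 and Socs2 in place of Fxyd2 and Alas2 among the lowest. Without those cells, no UMI of Cabp2 was left in other choosers. Kirrel, of the same family as Kirrel2 and Kirrel3, was at 33 against 12.9 CPM with 138 UMIs in 105 cells and 39 in 37 cells, a log2 fold over all cells of 1.35 (0.83 to 1.90). Mdga2, an adhesion protein of the immunoglobulin superfamily, was at 32.7 against 13.3 CPM, and the protocadherin Pcdh8 at 90.8 against 58.7 CPM. Dhrs3, a retinaldehyde reductase, was at 64.8 against 39.1 CPM, and Sqrdl, a mitochondrial enzyme of sulfide oxidation, at 78.9 against 48.4 CPM.

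**Figure D2:**
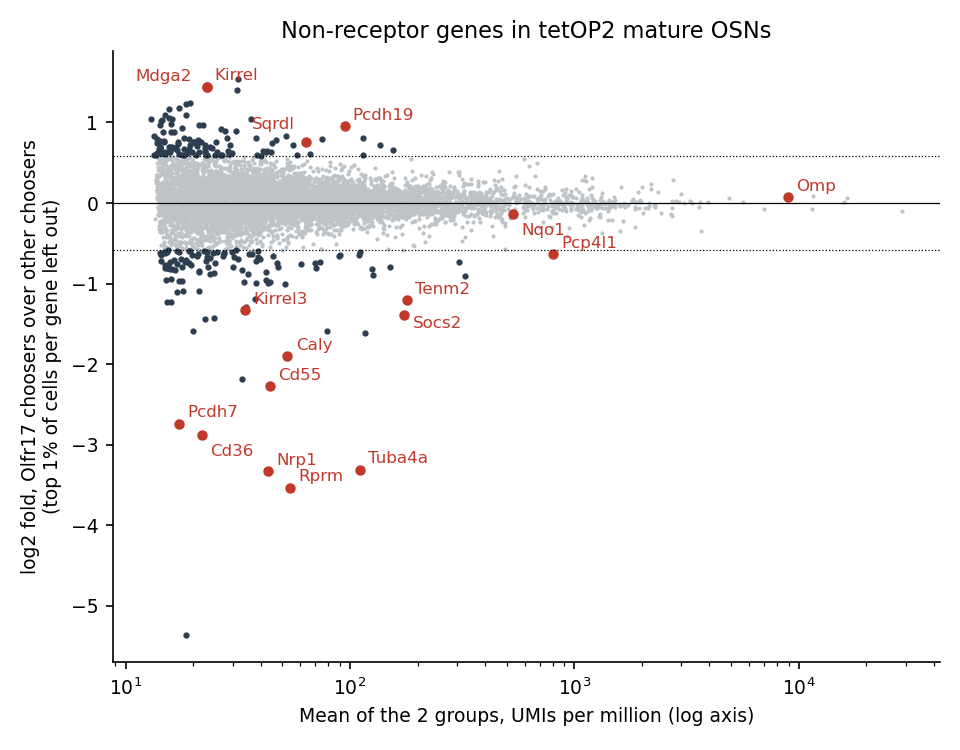
Each point is a non-OR gene with at least 100 UMIs over the 374 Olfr17 choosers and 256 other choosers of the tetOP2 library. The x axis is the mean CPM of both groups (log axis) and the y axis the log2 fold without the 1% of cells with most UMIs of each gene, with dotted lines at 1.5-fold. Most genes lie between the lines, a small group with Nrp1, Rprm and Tuba4a lies far below, and the lowest point is Bglap3. Cabp2 is not drawn because no UMI was left in other choosers.

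Most of the machinery that the neurons share differed by less than 1.5-fold, as did most measured genes. Over all 7106 genes 1.56% were higher and 1.53% lower, so a count of 0 or 1 in a list below says little about that list. Of 16 genes of olfactory signal transduction, 14 were measured and none passed in either direction, with log2 folds between -0.34 and 0.26 and a median of -0.01. Adcy3, the adenylyl cyclase of the cilia, was at 702 against 696 CPM, and Cnga2, the cyclic nucleotide-gated channel, at 831 against 859 CPM. Both are genes of the selection. Outside it, Cnga4 and Ric8b, at the ends of the range, were at 278 against 353 CPM and at 516 against 432 CPM. Of 15 measured genes of OR trafficking and the unfolded protein response, 1 was lower, the stress-induced pseudokinase Trib3 at 28.9 against 49.1 CPM. Rtp1, which carries ORs to the membrane, was at 926 against 842 CPM, and Atf5, the factor that the OR feedback signal acts through, at 3513 against 3676 CPM. None of 17 measured factors of OR choice and heterochromatin passed in either direction (median log2 fold 0.07), with Lhx2, an activator of OR enhancers, at 815 against 823 CPM. The same held for 13 cilia genes, 2 neuropeptide genes and 6 calcium-binding protein genes of a list that does not hold Cabp2. Without the 1% of cells with most UMIs of each gene, Cbx5, a heterochromatin protein, passed as higher with a log2 fold of 0.62 (0.51 with all cells), and the neuropeptide gene Pth2 with 0.60 (0.53). Of 12 measured activity-dependent genes, 2 were lower, Pcp4l1 (621 against 982 CPM) and the immediate early gene Btg2 (97.5 against 154 CPM), while S100a5, which follows odor activity, was at 10894 against 12058 CPM. Egr1, another immediate early gene, passed as lower only without those cells (log2 fold -0.64, and -0.50 with all cells). Of 13 measured immature OSN genes, 1 was lower, the growth cone protein Gap43 at 232 against 380 CPM. The tubulin regulator Stmn2 was at 793 against 1069 CPM, and the list's median log2 fold was -0.15. The 6 immature OSN genes of the cell type markers, led by Stmn2, summed to 1462 CPM in Olfr17 choosers, 1905 CPM in other choosers and 2033 CPM in other choosers of the gg8tTA control, with a median of 9.5 and 18 UMIs per cell in the first 2 groups. Without the cell of each group with most of these UMIs the sums were 1435 and 1874 CPM. This lower sum was found in the same group as the lower Nrp1, Kirrel3 and Tenm2. They were not compared cell by cell, and the part of the lower sum in those values was not tested. The selection asks for more Omp than Gap43 in both groups.

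Neurons that chose the natural Olfr17 gene allow a second look at the same genes. The other libraries held 13 such cells with 140739 non-OR UMIs in all, from 4 libraries. Over the 12 lowest genes of the tetOP2 comparison they held 6 UMIs, and 9 of those genes had no UMI, which allows up to 21.3 CPM each. A level below a mixture of ORs is common for single ORs in these genes. Among 106 ORs chosen by 10 or more cells in these libraries, Fxyd2 and Alas2 were each at 0 in 78, Cd36 in 72 and Bglap3 in 55, and for 11 of the 12 genes most of these ORs lay below the other choosers of the tetOP2 library. Nrp1 had 1 UMI (7.11 CPM, against 108 CPM in other choosers of these libraries), and Tuba4a, Rprm, Cd55 and Pcdh7 had 0 (against 86.7, 52.3, 131 and 99.7 CPM). Kirrel3 had 1 UMI, 7.11 against 39.5 CPM. Tenm2 had 26 UMIs in 10 of the 13 cells, 185 CPM (121 to 271) against 299.9 CPM, above the 106 CPM of Olfr17 choosers of the tetOP2 library. Tenm4 was at 14.2 against 43.8 CPM with 2 UMIs, and Pcdh17 at 121 against 190 CPM with 17 UMIs. Of the 12 highest genes 1 was also higher in natural choosers and 8 had no UMI there. Of the 12 named without the top 1% of cells 6 were higher and 2 had no UMI. Among the higher were Kirrel (71.1 against 53.7 CPM) and Pcdh8 (128 against 69 CPM). No share over all measured genes stands beside these counts of direction, so they describe the named genes only. Pcdh19, higher in the tetOP2 library, was at 71.1 against 72.1 CPM in natural choosers. These counts are small. Of the cells, 4 come from control replicate 1, 6 from control replicate 2, 2 from swap replicate 2 and 1 from the gg8tTA control.

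A mixture of many ORs is not the level of a typical OR. The levels in these 106 ORs (10 to 34 cells each, over the 5 other libraries) were therefore set beside those of Olfr17 choosers. This comparison was added after the folds were seen. Nrp1 ranged from 0 to 511 CPM over these ORs with a median of 64.0 CPM, and 25 of the 106 lay below the 9.32 CPM of Olfr17 choosers. For Pcdh7 25 ORs lay below, for Kirrel3 27 and for Tenm2 27, so Olfr17 choosers were in the lower part of the range but not outside it. For Rprm, Cd55 and Tuba4a 63, 63 and 50 ORs lay below Olfr17 choosers, with medians over the ORs of 5.4, 9.2 and 32.9 CPM and highest values of 875, 1214 and 426 CPM. The median over the ORs for Tenm2 was 185 CPM. Kirrel, higher than in other choosers of the tetOP2 library, was near the middle of the ORs, with 49 of 106 below the 33 CPM of Olfr17 choosers, a median of 36.1 CPM, and 29 below the 12.9 CPM of other choosers. At the other end 80 ORs lay below Olfr17 choosers for Pcdh19, 97 for Dhrs3 and 101 for Sqrdl. Other choosers of the tetOP2 library had 49, 76 and 85 ORs below them for these genes. Dhrs3 and Sqrdl were thus in the upper part of the range in both groups of that library. The cells per OR were few and their libraries differ, so the positions in these ranges are approximate.

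**Figure D3:**
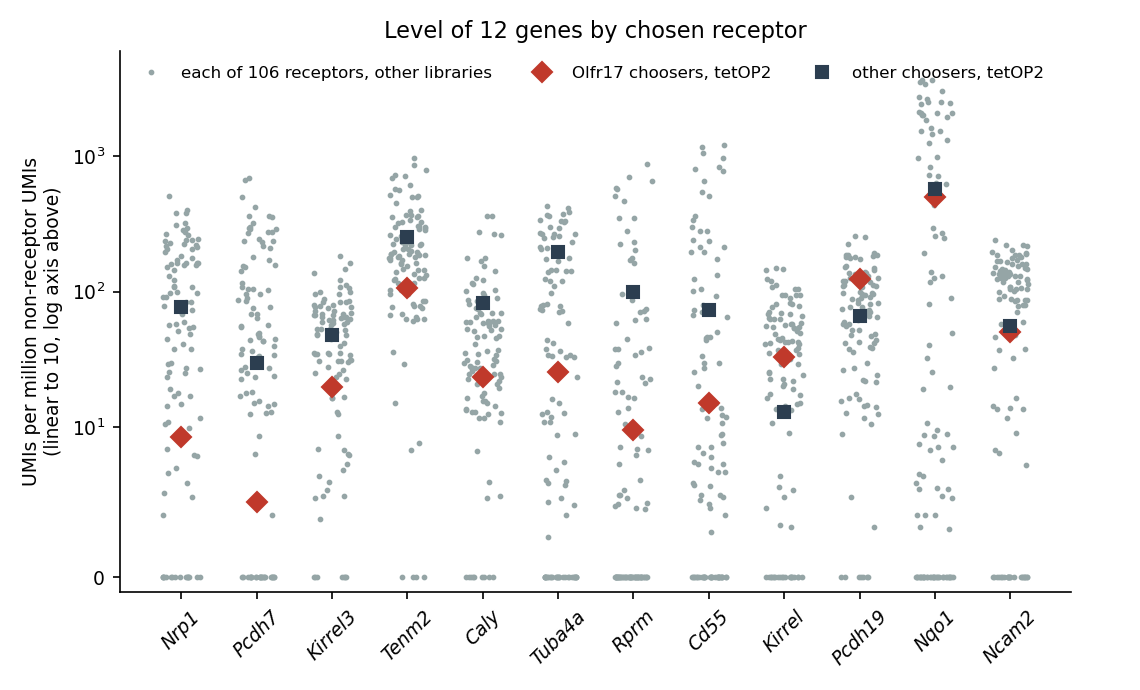
CPM of 12 genes (axis linear to 10 CPM and logarithmic above), with a gray point for each of 106 ORs chosen by 10 or more cells in the other 5 libraries, a red diamond for Olfr17 choosers and a dark square for other choosers of the tetOP2 library. Olfr17 choosers lie in the lower part of the gray points for Nrp1, Pcdh7, Kirrel3 and Tenm2, and next to other choosers for Nqo1 and Ncam2.

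Markers of position in the epithelium were compared next, and they did not all stand in the same order between transgenic and natural Olfr17 choosers. Nqo1, a quinone reductase of dorsal OSNs, had 2083 UMIs in Olfr17 choosers of the tetOP2 library, 498 CPM (477 to 520), against 570 CPM in other choosers. It had 1 UMI in the 13 natural Olfr17 choosers (7.11 CPM, 0.180 to 39.6). Of the other dorsal genes, Acsm4 was at 137 CPM in transgenic and 21.3 CPM in natural choosers (3 UMIs). Socs2 was at 98.7 and 63.9 CPM (29.2 to 121, 9 UMIs), an interval that holds the transgenic level. Robo2 stood in the other order, at 35.1 and 63.9 CPM (29.2 to 121, 9 UMIs in 4 natural cells). Of the ventral genes, Ncam2 was at 50.4 CPM in transgenic and 171 CPM in natural choosers, Nfib at 110 and 206 CPM and Nfix at 372 and 526 CPM. Nrp2 was lower in natural choosers at 62.4 and 28.4 CPM (7.74 to 72.8, 4 UMIs), as were Cidea at 157 and 63.9 CPM (29.2 to 121, 9 UMIs), Nfia at 40.4 CPM and 0 UMIs, and Pcp4l1 at 621 and 313 CPM (227 to 420, 44 UMIs). These levels come from different libraries, and the part of the library in them was not tested. Among the 374 transgenic choosers, 120 had a Nqo1 UMI, 83 had at least 5, and the median where it was found was 16.5 UMIs. Thinned to 3000 UMIs, Nqo1 was found in 25.9% (21.6 to 30.7%) of Olfr17 choosers, 29.3% (23.8 to 35.3%) of other choosers and 3.95% (1.91 to 7.15%) of sustentacular-gate cells, and in 35.3% of other choosers of the gg8tTA control. The adhesion molecule Ncam2, present in ventral OSNs, was found in 14.2% (10.8 to 18.1%) and 14.1% (10.1 to 18.9%) of Olfr17 and other choosers and in 0 of 253 sustentacular-gate cells, which allows up to 1.19%.

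Dorsal and ventral markers ran opposite to each other inside the Olfr17 group. In the 83 Olfr17 choosers with at least 5 Nqo1 UMIs, Acsm4, an enzyme gene of dorsal OSNs, was at 514 CPM and found in 81 cells, while Ncam2 was at 6.6 CPM and found in 4 cells, the ventral transcription factor gene Nfix was at 73.7 CPM and Nrp2 at 6.6 CPM. In the 254 cells without a Nqo1 UMI, Acsm4 was at 28.8 CPM, Ncam2 at 67.6 CPM in 127 cells, Nfix at 468 CPM in 240 cells and Nrp2 at 79.8 CPM. Nrp1, Kirrel3, Tenm2 and Tuba4a were below other choosers in both subsets. Nrp1 was at 13.5 CPM in Olfr17 choosers with a Nqo1 UMI and 7.19 CPM in those without, against 69.4 and 80.7 CPM in the corresponding other choosers. Kirrel3 was at 14.2 and 22.7 CPM against 63.0 and 39.6 CPM, and Tenm2 at 109 and 105 CPM against 204 and 279 CPM. Tuba4a was at 34.9 and 20.5 CPM against 198 and 195 CPM. The Olfr17 level itself had a median of 8115 CPM over all UMIs of the cell where Nqo1 was found and 9552 where it was not.

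Position was summed up in a dorsoventral score, in which the mean standardized level of 4 dorsal genes (Robo2, Sema3f, Acsm4 and Nqo1) is taken from that of 5 ventral genes (the nuclear factor I genes Nfix, Nfib and Nfia with Nrp2 and Ncam2), with the gg8tTA control as the reference at about 0. Olfr17 choosers had a mean score of 0.41 (SD 1.10, n = 374 cells) with a range from -2.36 to 2.87, and other choosers 0.20 (SD 1.12, n = 256 cells). Against the scores of gg8tTA control neurons, 15.2% (11.8 to 19.3%) of Olfr17 choosers lay below their 25th percentile, on the dorsal side, and 40.4% (35.4 to 45.5%) above their 75th, on the ventral side, against 19.1% (14.5 to 24.5%) and 32.4% (26.7 to 38.5%) of other choosers. The 13 natural Olfr17 choosers had a mean of 0.94 (SD 0.483) and a range from 0.13 to 1.65, and none of them was below 0. Both ends of this range lay outside the control libraries. The 2 cells of swap replicate 2 were at 0.157 and 1.65, and the gg8tTA control cell at 0.13. The 4 cells of control replicate 1 ranged from 0.468 to 1.19 (SD 0.301), and the 6 of control replicate 2 from 0.631 to 1.47 (SD 0.296). Their libraries differ in level, since other choosers had a mean of 0.34 in control replicate 1, 0.32 in control replicate 2, 0.07 in swap replicate 2 and 0.00 in the gg8tTA control. The part of this offset in the natural choosers' mean was not tested.

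**Figure D4:**
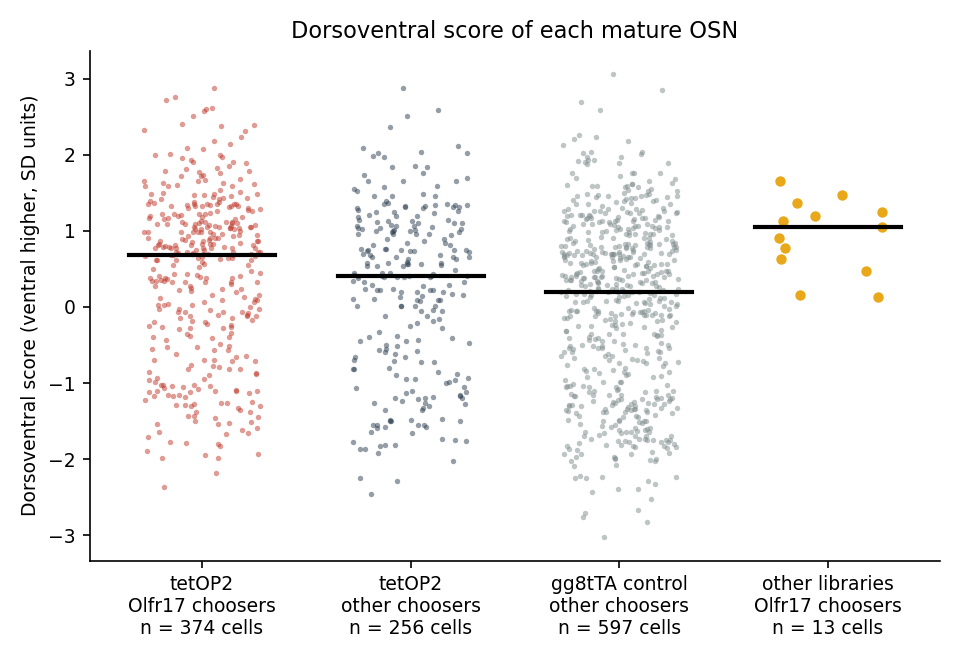
Dorsoventral score of each mature OSN (higher is more ventral), by library and group, with a bar at the median. Olfr17 choosers of the tetOP2 library span -2.36 to 2.87 as the mixed groups do, and the 13 Olfr17 choosers of the other libraries lie between 0.13 and 1.65. The lowest of these 13 is from the gg8tTA control and the highest from swap replicate 2.

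The spread of the score within Olfr17 choosers was close to that of the mixed other choosers. In the other 5 libraries 131 combinations of library and OR had 5 or more cells, and the SD of the score within them had a median of 0.590 and a range from 0.169 to 1.49. The SD of 1.10 in Olfr17 choosers was reached or passed by 4 of these 131, Olfr17 itself in control replicate 2 had an SD of 0.296 over 6 cells, and 7 ORs chosen by 3 or more other choosers of the tetOP2 library had SDs up to 0.656. The score depends on depth, and thinned to 3000 UMIs 17.7% of the combinations were at least as wide as Olfr17 choosers, as were 19.1% with a score of Ncam2, Nqo1 and Acsm4. Of 6 measured dorsal markers, 4 were lower in Olfr17 choosers (Cd55, Socs2, Robo2 and Acsm4) with a list median of -0.68. Acsm4 was near the limit, at 137 against 207 CPM, and did not pass without the 1% of cells with most of its UMIs (log2 fold -0.58, and -0.59 with all cells). Of 10 measured ventral markers, the transcription factor gene Nfia was higher at 40.4 against 21.6 CPM and 2 were lower (Rprm and Pcp4l1), with a median of 0.06. Nfia had no UMI in natural choosers and was found in 27.3% of thinned sustentacular-gate cells, and Acsm4 in 22.5% of them. Nfib, also a gene of the score, was found in 59.3% of them, against 22.2% of Olfr17 choosers and 22.7% of other choosers.

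**Figure D5:**
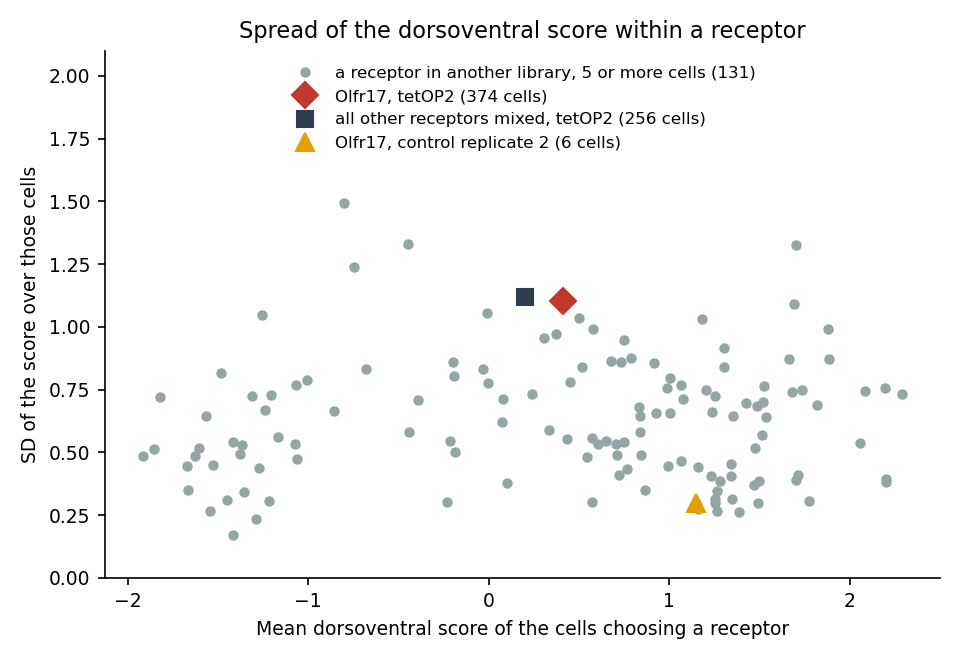
SD of the dorsoventral score over the cells that chose an OR (y axis) against their mean score (x axis), with a gray point for each of 131 combinations of library and OR with 5 or more cells. Olfr17 choosers of the tetOP2 library (SD 1.10) lie beside the mixed 256 other choosers, above most single ORs, while Olfr17 in control replicate 2 (SD 0.296) sits among the narrow ones.

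Markers of cell types other than OSNs were found in both groups, and some of their sums rested on single cells. Each sum is therefore also given without the 1 cell of each group that held most of it where that changed the picture, an alternative chosen after the values were seen. Olfactory ensheathing markers, led by Fabp7, summed to 110 CPM in Olfr17 choosers against 53.7 CPM, and 66.9 against 38.3 CPM without those cells. Horizontal basal markers were at 25.6 against 12.6 CPM, and 17.9 against 11.98 CPM without them. Erythroid markers were at 37.0 against 81.2 CPM, with Hbb-bs and Hbb-bt at 0 in Olfr17 choosers. One of the other choosers held 114 of the 245 erythroid UMIs of its group, and without the top cells the levels were 28.2 against 43.6 CPM. The microvillar list was at 5.02 against 10.9 CPM, but 1 other chooser held 24 of 33 UMIs, and without the top cells the order turned to 4.12 against 3.002 CPM. Macrophage genes were at 9.32 against 15.3 CPM, and 8.62 against 10.3 CPM without them. B lineage genes were at 13.1 against 9.62 CPM, and 8.63 against 3.33 CPM without 1 cell of 19 UMIs in each group. Neutrophil genes were at 159 against 146 CPM, respiratory and gland genes at 340 against 322 CPM, and vomeronasal genes, of which Gnao1 held the whole sum, at 238 against 276 CPM. Of the cells predicted to be doublets, 7 were Olfr17 choosers and 5 other choosers, and without them 79 genes were at least 1.5-fold higher and 108 lower. The part of these cells in the values above was otherwise not tested.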

How the data were processed

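The authors deposited counts, UMIs per gene symbol and cell barcode of 6 10X libraries, made with Cell Ranger with introns included and not normalized. The file headers of the swap and control libraries name Cell Ranger 3.1.0, and those of the transgenic libraries name no version. The submitters' processing notes name mm10. Each file lists 24564 genes, 1116 of them OR genes.

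A minimum of 1000 UMIs and 500 genes per cell left all 2563 cells of the tetOP2 library. Sums over cells were compared as CPM over non-OR UMIs, with exact conditional binomial intervals for folds, exact Poisson intervals for sums and Clopper-Pearson intervals for shares, all at 95%. A count of 0 allows 3 counts. The interval step was tested on simulated data. With 1 library per transgenic genotype, no p-value was computed. Doublets, scored by simulated pairs (0.8% per 1000 cells called), were kept, and left out in an alternative. Genes were named by the 12 highest lower bounds and 12 lowest upper bounds of the fold among genes with 100 or more UMIs, beside members of 12 lists. The members, lists and rules were chosen with earlier results of these data known. One part of the genotype labels and 1 marker list are not reported here. Python 3.11.15, NumPy 2.4.6, SciPy 1.17.1, pandas 2.3.3 and scikit-learn 1.9.0 were used.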

Additional observations from a re-analysis of the deposited data

How the results depend on the processing

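The share of Olfr17 choosers stayed within its interval under each of 6 other cell rules. The difference in mean dorsoventral score, and the shares of cells with Nqo1, Ncam2 or Nrp1, did so under each other cell rule run for them. The count of 220 genes past 1.5-fold became 1171 with a minimum of 20 UMIs, 2646 without a minimum, 34 with 500 UMIs, 60 at 2-fold, 104 after thinning to 3000 UMIs, and 136 in cells with a Nqo1 UMI. The SD of the score became 1.51 with a score of Ncam2, Nqo1 and Acsm4 and 0.900 after thinning. The share of combinations of library and OR at least as wide became 19.1% and 17.7% in those settings, and 0% (0 of 8) with 10 or more cells. With each cell at its own depth, a second OR was found in 55.6% and 60.5% of Olfr17 and other choosers, Nqo1 in 32.1% and 37.5%, Ncam2 in 38.0% and 41.4%, and Nrp1 in 7.49% and 38.3%. A second OR of 3 or more thinned UMIs was found in 0.802% and 1.56%. Without predicted doublets the log2 fold turned for Bglap (-0.109), Col1a1 (-0.0220), Sparc (-0.0802) and Smpd3 (-0.743). Without cells with osteoblast genes it turned for Bglap (-0.111), Sparc (-0.0689) and Smpd3 (-0.714), without the top 1% of cells for Bglap (-0.0840), Sparc (-0.0440), Smpd3 (-0.624) and Fxyd2 (1.55), and in cells with a Nqo1 UMI for Alas2 (1.23). Without the cell with most of its UMIs in each group, the log2 fold of the microvillar markers turned to 0.46. Of the other named genes none turned in any setting run, and Nrp1 ranged from -3.49 to -2.36. The alternatives that leave out cells by their genes were chosen after seeing the data. No paired analysis was possible because the tetOP2 and gg8tTA control libraries are 1 sample each.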
